A study of Homo sapiens with 9 samples.

Results

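*SIRPB1*, *ARHGAP30* and *TRBC2*, genes best known from white blood cells, were picked because their counts shifted when *TRPV4* was knocked down in a breast cancer cell line, and *SIRPA*, *CD47* and *TRBC1* were added as their close relatives or partners. These 6 genes are described here of 60664 listed. RNA was measured in MDA-MB-231, an epithelial breast cancer line, in 9 libraries on day 6. In the first group of 3, cells with a non-targeting scramble hairpin (SC) were kept in medium of 0.77 cP. In the second group of 3, SC cells were kept in medium thickened with methylcellulose to 8 cP. In the third group of 3, cells carrying a hairpin against *TRPV4* (shTRPV4) were kept at 8 cP. All cells carried the pLKO.1 puro lentiviral backbone and were held under puromycin, and the knockdown rests on 1 hairpin sequence, so the effects of *TRPV4* loss and of that hairpin or line cannot be told apart. shTRPV4 cells at 0.77 cP were not analysed here.

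Library totals ran from 64571681 to 103518036 counts. *TRPV4*, the calcium channel targeted by the hairpin, had 40, 28 and 54 counts in the SC libraries at 0.77 cP, 64, 45 and 24 at 8 cP, and 7, 1 and 13 in the shTRPV4 libraries. Every shTRPV4 library lay below every SC library, with a log2 fold change at 8 cP of -2.51 (SE 0.49, edgeR adjusted p = 0.00219). Between the viscosities *TRPV4* differed by -0.0087 on the log2 scale (adjusted p = 0.991). Transcripts known from all leukocytes were of unequal level. *PTPRC*, which encodes the pan-leukocyte antigen CD45, had 5 to 17 counts a library, whereas *CD44*, abundant in this line, had 50411 to 83884. Other such transcripts were not scarce, with 10927 to 17582 counts of *RAC2* and 3006 to 6915 of *LAPTM5* a library. The word leukocyte is used here for where these genes are known to work, not for a cell type in the samples.

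SIRPα, the product of *SIRPA*, is an inhibitory receptor of macrophages and other myeloid cells. When it binds CD47, a membrane protein carried by nearly all cells, it recruits the phosphatases SHP-1 and SHP-2 and restrains phagocytosis, so that CD47 is known as a "don't eat me" signal that tumours can exploit. SIRPβ1 has a similar outer part but lacks the inhibitory tail and signals through the adaptor DAP12, encoded by *TYROBP*. ARHGAP30 is a GTPase-activating protein, known to switch off RhoA and Rac1, the regulators of actomyosin contraction and membrane protrusion. *TRBC1* and *TRBC2* encode the alternative constant regions of the T cell receptor β chain, whose variable part is assembled in T cells by joining V, D and J segments.

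The unit of level was CPM, a gene's count divided by the library size after edgeR's trimmed mean (TMM) scaling, and between genes it was CPM per kilobase of exon. Knockdown below means shTRPV4 against SC cells at 8 cP, and viscosity means SC cells at 8 cP against 0.77 cP. log2 fold changes came from edgeR's quasi-likelihood fit, and a gene was called at an adjusted p below 0.05. In SC cells at 8 cP, *CD47* was at 15.3 CPM per kb, *TRBC2* at 2.28, *SIRPA* at 1.08, *ARHGAP30* at 1.03, *TRBC1* at 0.651 and *SIRPB1* at 0.185. *SIRPA* and *ARHGAP30* did not differ in this order beyond the spread of their libraries. In shTRPV4 cells *CD47* was still first at 14.2 CPM per kb, followed by *TRBC2* at 9.71 and *TRBC1* at 1.94. *SIRPA* stood at 1.30, *ARHGAP30* at 0.194 and *SIRPB1* at 0.0317 CPM per kb. All 6 genes passed the filter on low counts. In bulk RNA, fewer cells that express a gene and less of its RNA in each cell cannot be told apart.

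**Figure D1:**
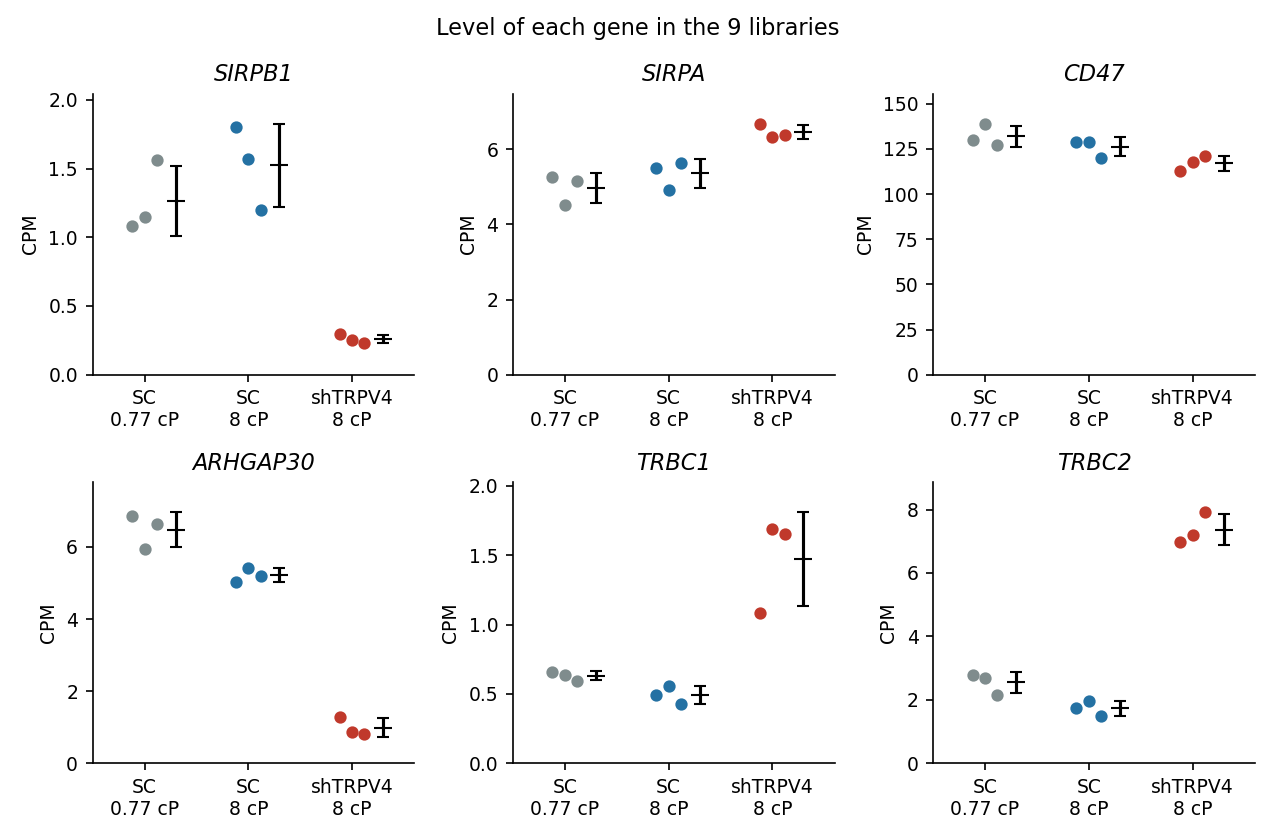
Level of each of the 6 genes in CPM (vertical axes, from 0) in the 3 libraries of each group (points), with the mean ± SD beside them (bars). *SIRPB1* and *ARHGAP30* were lowest and *TRBC1* and *TRBC2* highest in the 3 shTRPV4 libraries, *SIRPA* lay slightly higher there, and *CD47* overlapped between the groups at 8 cP.

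The 3 genes that had not been chosen from the knockdown contrast gave 2 calls in it, *SIRPA* and *TRBC1*, both higher, against a background of 20.0% of the 18264 genes tested that were called in that contrast (9.02% higher and 11.0% lower). The groups at 8 cP did not overlap for *SIRPA* and *TRBC1* and overlapped for *CD47*, where 36.3% of all genes tested did not overlap. The 3 chosen genes are left out of this comparison, because this contrast chose them. With viscosity 1 of the 6 genes was called, *TRBC2*, against 19.3% of all genes tested (9.57% higher and 9.69% lower), a share near the background. *ARHGAP30*, *TRBC1* and *TRBC2* did not overlap between the viscosities, all lower at 8 cP, as 38.4% of all genes did not. The remaining values with viscosity were 0.27 on the log2 scale for *SIRPB1* (95% interval -0.147 to 0.677, edgeR adjusted p = 0.367), 0.10 for *SIRPA* (0.467) and -0.064 for *CD47* (0.381). *SIRPA*, *CD47* and *TRBC1* did not overlap between shTRPV4 cells and the 0.77 cP SC cells, as 50.6% of all genes tested did not. The 3 chosen genes are again left out, because the same shTRPV4 libraries chose them. There all 3 genes open to a test were called (*SIRPA* and *TRBC1* higher, *CD47* lower), against 42.4% of all genes tested, 20.4% higher and 22.0% lower. The viscosity and knockdown contrasts share the 3 SC libraries at 8 cP, so their values are not independent. Those libraries also took part in choosing *SIRPB1*, *ARHGAP30* and *TRBC2*. The p-values of these genes with viscosity, and the count of calls with viscosity, are therefore not free of that choice.

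The sequences of the SIRP genes are closely alike. Along the aligned coding sequence (1184 bases), *SIRPB1* and *SIRPA* were 88.1% identical in GENCODE release 44 (GRCh38), and *SIRPB1* and *SIRPG*, the relative known from T cells, were 86.9% identical. A stretch of 100 bases, the length of 1 read, is shown from the most similar part, each taken from within 1 exon and on the gene's own strand (*SIRPB1* chr20:1571887-1571986, minus; *SIRPA* chr20:1921446-1921545, plus; *SIRPG* chr20:1636355-1636454, minus). Capitals mark the bases at which the 3 genes are not all alike.
SIRPB1: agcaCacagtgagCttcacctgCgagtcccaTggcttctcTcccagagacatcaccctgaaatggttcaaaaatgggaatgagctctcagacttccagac
SIRPA: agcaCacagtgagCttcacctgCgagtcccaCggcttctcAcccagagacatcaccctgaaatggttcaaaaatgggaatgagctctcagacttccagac
SIRPG: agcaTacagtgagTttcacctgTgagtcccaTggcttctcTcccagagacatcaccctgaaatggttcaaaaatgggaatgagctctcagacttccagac
In this window *SIRPB1* had 2 mismatches to *SIRPA* and 3 to *SIRPG*. The canonical transcript of *SIRPB1* shared no 100-base window exactly with that of *SIRPA*, and 81 of its windows (1.53%) came within 2 mismatches. Of the 15 *SIRPB1* transcripts annotated, however, 7 held windows found exactly in *SIRPA*, up to 306 windows in 1 transcript, which equals 6.18% of the 4948 distinct windows of *SIRPA*. A read from such a stretch fits both genes, and how the counting treated it is not given in the sources used here. *SIRPB1* also shares 815 exon bases with ENSG00000260861 on the same strand, a gene with 0 counts in all 9 libraries. *SIRPA* shares 208 exon bases with the long non-coding RNA gene ENSG00000276649 on the other strand.

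*SIRPB1* (ENSG00000101307; chr20:1561385-1620061, minus strand) was scarce throughout. It had 102, 74 and 160 counts in SC cells at 0.77 cP and 178, 152 and 109 at 8 cP. The shTRPV4 libraries had 27, 20 and 21 counts. The shTRPV4 libraries were the 3 lowest, without overlap, and the SC libraries of both viscosities overlapped. The SC mean at 8 cP was 1.52 ± 0.302 CPM (SD, n = 3), that of shTRPV4 cells 0.261 ± 0.0316 CPM (SD, n = 3). This is a log2 difference of -2.54 (SE 0.234) or 5.82-fold lower, given without a test because this contrast chose the gene. Against SC cells at 0.77 cP (1.26 ± 0.255 CPM, SD, n = 3) the shTRPV4 value was -2.28 on the log2 scale.

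*SIRPA* (ENSG00000198053; chr20:1894167-1940592, plus strand) differed little between groups. Its levels were 5.26, 4.52 and 5.14 CPM in SC cells at 0.77 cP, 5.51, 4.92 and 5.64 at 8 cP, and 6.68, 6.32 and 6.38 in shTRPV4 cells. The shTRPV4 libraries were the 3 highest. The log2 fold change on knockdown was 0.27 (SE 0.088, 95% interval 0.083 to 0.46, edgeR adjusted p = 0.0412), which is 1.21-fold. In 5 of 9 fits with 1 library removed this call was lost, without SC replicate 1 (adjusted p = 0.0812) or 2 (0.198) at 8 cP, and without shTRPV4 replicate 1 (0.109), 2 (0.0815) or 3 (0.0709). Relative to 0.77 cP SC cells it was higher by 0.37 on the log2 scale (edgeR adjusted p = 0.00329).

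*SIRPB1* made up 17.1% to 23.2% of the summed *SIRPB1* and *SIRPA* counts in SC cells at 0.77 cP and 17.6% to 24.6% at 8 cP. In shTRPV4 cells its share was 3.51% to 4.22%. When the counts of both genes were added, the sum differed by -0.033 on the log2 scale (95% interval -0.213 to 0.146) between shTRPV4 and SC cells at 8 cP. From SC to shTRPV4 cells at 8 cP, mean *SIRPB1* fell from 1.52 to 0.261 CPM while mean *SIRPA* rose from 5.36 to 6.46 CPM. With both changes in the sum, the drop in *SIRPB1* is not visible in the pair's total. Whether reads were assigned to *SIRPA* in one group and to *SIRPB1* in another was not tested. *SIRPG* had 5, 5 and 4 counts in SC cells at 0.77 cP, 11, 7 and 2 at 8 cP, and 0 in every shTRPV4 library, which put it at least 6.06-fold lower at 8 cP with 3 counts over the group as the limit for a count of 0. The other SIRP relatives were near 0, with 2 counts of *SIRPB2*, 1 of *SIRPD* and 0 of *SIRPB3P* over all 9 libraries.

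*CD47* (ENSG00000196776; chr3:108043091-108091862, minus strand) was the most abundant of the 6 genes. Its levels were 130, 139 and 127 CPM in SC cells at 0.77 cP, 129, 129 and 120 CPM at 8 cP, and 113, 118 and 121 CPM in shTRPV4 cells. The groups at 8 cP overlapped. The log2 fold change on knockdown was -0.11 (95% interval -0.21 to -0.0052, edgeR adjusted p = 0.135), which did not pass the threshold of 0.05. Against SC cells at 0.77 cP, *CD47* was lower in shTRPV4 cells by -0.17 on the log2 scale (edgeR adjusted p = 0.00926), a call lost without SC replicate 2 at 0.77 cP (adjusted p = 0.0729). None of its 8424 windows of 100 bases was repeated in another gene.

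Of the other genes that bind or act with CD47 and the SIRP receptors, 12 of 17 were tested. On knockdown 4 were higher and 0 lower, where 9.02% of all genes tested were called higher and 11.0% lower. The median log2 fold change was 0.119 against 0.000645 over all genes tested. The thrombospondins, secreted ligands of CD47, were among those that rose: *THBS1* by 0.30 (adjusted p = 0.00191) and *THBS2* by 1.15 (adjusted p = 0.00706) on the log2 scale. *ITGAV*, the αv chain of the integrin that associates with CD47, rose by 0.28 (adjusted p = 0.00137). The signalling partners of SIRPβ1 were almost absent. *TYROBP* had 4 counts over all libraries, all in shTRPV4 replicate 3, and *SYK*, the kinase that acts after DAP12, had 15. Between the viscosities 3 of the 12 were higher and 4 lower at 8 cP (median 0.0381), against 9.57% and 9.69% of all genes tested. Those called included *PTPN6*, which encodes SHP-1, at -0.59 (edgeR adjusted p = 0.00180). *ITGB3*, the partner chain of αv, was at -0.76 (adjusted p = 0.000736), and *PTPN11*, which encodes SHP-2, at 0.26 (adjusted p = 0.00959). *PTPN11* lost its call without SC replicate 1 at 0.77 cP (0.0546) or SC replicate 3 at 8 cP (0.0530).

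*ARHGAP30* (ENSG00000186517; chr1:161046946-161069970, minus strand) was lowest by far in shTRPV4 cells. It had 648, 381 and 682 counts in SC cells at 0.77 cP, 497, 523 and 471 at 8 cP, and 117, 68 and 73 in shTRPV4 cells. In CPM these were 6.87, 5.94 and 6.63, then 5.03, 5.41 and 5.19, then 1.28, 0.869 and 0.807. None of the groups overlapped. The log2 fold change on knockdown was -2.40 (SE 0.140) or 5.26-fold lower, given without a test because this contrast chose the gene. With viscosity it was -0.32 (SE 0.118, 95% interval -0.57 to -0.068), and the edgeR adjusted p of 0.0696 did not pass. It passed in DESeq2 (adjusted p = 0.0429), without a filter on low counts (0.0385), with only the 6 samples compared (0.0185) and without shTRPV4 replicate 1 (0.0165).

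No 100-base window of *ARHGAP30* was repeated exactly in another gene (0 of 5646), and its nearest windows in the related genes *ARHGAP33*, *ARHGAP31* and *ARHGAP32* differed by at least 19, 22 and 26 bases. No stretch of read length in it was therefore shared with another annotated gene. Of the rest of the RhoGAP family, 30 of 34 genes were tested. On knockdown 3 were higher and 2 lower (median -0.0121), against 9.02% and 11.0% of all genes tested. *ARHGAP45*, another RhoGAP known from blood cells, had a log2 fold change of -0.50 (adjusted p = 0.000172), *ARHGAP42* of 0.31 (0.00107) and *ARHGAP39* of 0.38 (0.00245). With viscosity 3 were higher and 2 lower (median -0.0100), against 9.57% and 9.69% of all genes tested. Those called included *ARHGAP40* at -0.54 (edgeR adjusted p = 0.00217), *ARHGAP11A* at 0.21 (0.00606) and *ARHGAP22* at 0.16 (0.0125, lost without SC replicate 3 at 8 cP with 0.0534).

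*TRBC1* and *TRBC2* lie 9.3 kb apart, start to start, and their coding exons are almost the same. Exon 1, which encodes most of the outer domain, is 387 bases long in both and differs at 7 (98.2% identical). Exon 3 is 107 bases long in both and differs at 8 (92.5% identical; *TRBC1* chr7:142792692-142792798, *TRBC2* chr7:142802105-142802211, both on the plus strand of GRCh38). It is shown because, within it, only the bases in capitals tell the genes apart. A read that runs into another exon, or the other read of its pair, can carry further differing bases.
TRBC1 exon 3: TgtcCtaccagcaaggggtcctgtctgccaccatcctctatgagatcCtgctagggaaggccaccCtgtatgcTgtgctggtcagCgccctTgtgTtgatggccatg
TRBC2 exon 3: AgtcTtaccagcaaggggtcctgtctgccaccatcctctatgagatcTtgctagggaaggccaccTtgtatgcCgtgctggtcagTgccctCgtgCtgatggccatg
Of the 661 windows of 100 bases in *TRBC1*, 74 (11.2%) were identical in *TRBC2* and 241 (36.5%) came within 2 mismatches. The last exons, of 248 and 246 bases, are unlike each other and mark the gene of origin.

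**Figure D2:**
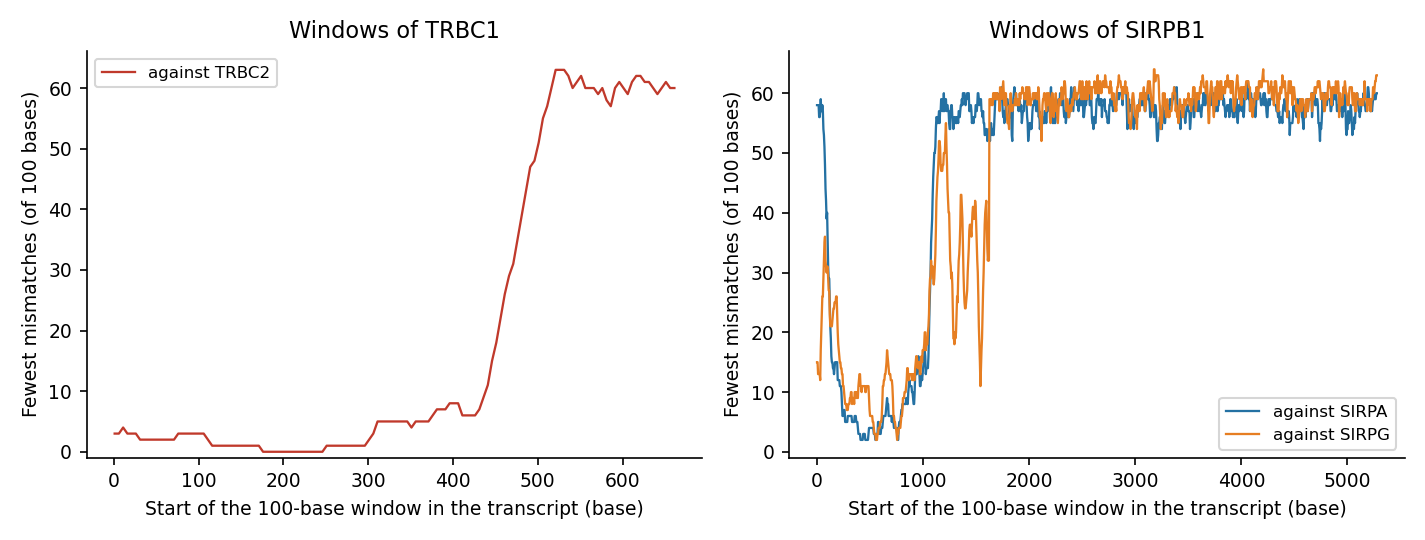
Fewest mismatches of each 100-base window to any stretch of the relative's canonical transcript (vertical axis, of 100 bases) by the window's start in the transcript (horizontal axis, bases), for *TRBC1* against *TRBC2* (left) and the canonical *SIRPB1* transcript against *SIRPA* and *SIRPG* (right). *TRBC1* windows reached 0 mismatches in exon 1 and then rose where the last exon begins, whereas *SIRPB1* came no closer than 2 mismatches to either relative and only over part of its length.

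*TRBC2* (ENSG00000211772; chr7:142801041-142802748) had 262, 173 and 222 counts in SC cells at 0.77 cP, 173, 188 and 135 at 8 cP, and 639, 563 and 716 in shTRPV4 cells. The means were 2.54 ± 0.337, 1.73 ± 0.230 and 7.36 ± 0.494 CPM (SD, n = 3). The 3 groups did not overlap, with SC cells at 8 cP lowest and shTRPV4 cells highest. The log2 fold change on knockdown was 2.09 (SE 0.123) or 4.25-fold, given without a test because this contrast chose the gene. With viscosity it was -0.55 (SE 0.13, 95% interval -0.83 to -0.27, edgeR adjusted p = 0.00941). This call was lost without SC replicate 1 at 0.77 cP (-0.47, adjusted p = 0.0618) or SC replicate 3 at 8 cP (-0.45, adjusted p = 0.0569). Choosing *TRBC2* as higher on knockdown favours low values in the SC libraries at 8 cP. It thus favours a negative value with viscosity, and this p-value is not free of the choice.

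*TRBC1* (ENSG00000211751; chr7:142791694-142793368) had fewer counts, at 62, 41 and 61 in SC cells at 0.77 cP, 49, 54 and 39 at 8 cP, and 99, 132 and 149 in shTRPV4 cells. The shTRPV4 libraries were the 3 highest. The log2 fold change on knockdown was 1.57 (SE 0.213, 95% interval 1.11 to 2.02, edgeR adjusted p = 0.000112). Some reads can fit both *TRBC1* and *TRBC2*, so this value may not be independent of that of *TRBC2*. Against SC cells at 0.77 cP it was 1.22 (edgeR adjusted p = 0.000245). With viscosity it was -0.34 (edgeR adjusted p = 0.314), which did not pass although the groups did not overlap. *TRBC1* took 19.1% to 21.6% of the summed counts of both genes in SC cells at 0.77 cP, 22.1% to 22.4% at 8 cP and 13.4% to 19.0% in shTRPV4 cells. Both genes had more counts in every shTRPV4 library than in any SC library. Added together, they were higher by 1.99 on the log2 scale on knockdown, given without a test, and lower by -0.51 with viscosity (edgeR adjusted p = 0.0108). The sum holds *TRBC2*, so this p-value is not free of the choice of that gene either.

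The genes around *TRBC2* were compared next, to see whether its neighbours on chromosome 7 moved with it. Of 45 other genes within 200 kb, only 7 passed the filter on low counts. One of them was *TRBC1*, which can share reads with *TRBC2*, and *TRBJ2-1* and *TRBJ2-3* passed only through the shTRPV4 libraries, where they were high. Of the other 4, *PRSS2*, *TRBV30* and *EPHB6* were called higher on knockdown and *TRBJ2-2P* was not called, where 9.02% of all genes tested were called higher. So few neighbours were measured that nothing is read from this count. *PRSS2*, a trypsinogen gene that lies within the T cell receptor β locus between the V segments and *TRBC1*, 40.6 kb before *TRBC2*, had 238, 186 and 244 counts in SC cells at 0.77 cP, 270, 254 and 201 at 8 cP, and 699, 646 and 819 in shTRPV4 cells. Its log2 fold change on knockdown was 1.72 (SE 0.11, edgeR adjusted p = 7.4e-08), and with viscosity it was -0.031 (adjusted p = 0.883). Trypsinogen genes resemble each other closely, so reads of *PRSS2* may also be shared, and *PRSS1* had 1, 1 and 0 counts in SC cells at 8 cP and 8, 3 and 4 in shTRPV4 cells.

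The J segments *TRBJ2-1* and *TRBJ2-3*, between *TRBC1* and *TRBC2*, are given as counts with no test, for the reason above. *TRBJ2-1* had 14, 3 and 6 counts in SC cells at 0.77 cP, 6, 3 and 5 at 8 cP, and 12, 21 and 23 in shTRPV4 cells. *TRBJ2-3* had 14, 4 and 3, then 1, 5 and 5, then 15, 12 and 24. Both were higher in the shTRPV4 libraries than in the SC libraries at 8 cP. In CPM, the SC libraries at 0.77 cP overlapped with shTRPV4 for *TRBJ2-1*. For *TRBJ2-3* they lay just below, with 0.1485 CPM as the highest SC library at 0.77 cP and 0.1533 as the lowest shTRPV4 library. *TRBJ2-2P* was at 0.51 (adjusted p = 0.549). Beyond *TRBC2*, the inverted V segment *TRBV30* had a log2 fold change of 1.23 (edgeR adjusted p = 0.0324), lost in 5 of the 9 fits, those without any 1 of the SC libraries at 8 cP or without shTRPV4 replicate 2 or 3 (adjusted p from 0.0797 to 0.139). *EPHB6*, an ephrin receptor gene 54.0 kb further on, had 87, 78 and 30 counts in SC cells at 8 cP and 131, 149 and 129 in shTRPV4 cells (log2 fold change 1.22, edgeR adjusted p = 0.00361). With viscosity 0 of these 7 neighbours were called, although *EPHB6* passed in DESeq2 (-0.69, adjusted p = 0.0423), without a filter on low counts (-0.70, 0.00994) and without SC replicate 1 at 8 cP (-0.93, 0.0466).

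Across the locus, 33 of 68 V genes had a count in some library. Their summed counts were 162, 145 and 189 in SC cells at 0.77 cP, 209, 203 and 260 at 8 cP and 337, 268 and 298 in shTRPV4 cells. The 14 J genes summed to 45, 19 and 22, then 13, 23 and 24, then 43, 47 and 72 counts. At 8 cP the V and J sums were both higher in the shTRPV4 libraries, without overlap. Of all genes tested, 36.3% did not overlap in CPM in this contrast. Most J counts of the shTRPV4 libraries came from *TRBJ2-1* and *TRBJ2-3*, which passed the filter only through those libraries. Without these segments the raw J counts of the groups at 8 cP overlapped, but scaled to library size they did not. The counts left are few, so nothing is read from them.

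Neighbours of the other genes were compared in the same way. Around *ARHGAP30*, 16 of 33 genes within 200 kb were tested, with a median log2 fold change on knockdown of 0.00795. Of these, 0 were higher and 2 lower, against 9.02% and 11.0% of all genes tested. *F11R*, which encodes the junctional adhesion molecule JAM-A, was at -0.43 (edgeR adjusted p = 0.000701), and ENSG00000213080 was at -0.29 (0.0230), a call lost in 4 of the 9 fits without 1 library (SC replicate 1 or 2 at 8 cP, shTRPV4 replicate 1 or 3, adjusted p from 0.0584 to 0.118). With viscosity 3 of the 16 were lower, against 9.69% of all genes tested. These were *F11R* at -0.34 (edgeR adjusted p = 0.00541), *TSTD1* at -0.41 (0.00833) and *PPOX*, a haem synthesis gene, at -0.30 (0.0153). *TSTD1* and *PPOX* lost their calls without SC replicate 1 at 0.77 cP (0.0592 and 0.0878) or SC replicate 3 at 8 cP (0.0524 and 0.0945), and *PPOX* also without SC replicate 2 at 0.77 cP (0.0613). Around *SIRPB1* 4 of 21 genes were tested and 0 called, and around *SIRPA* 1 of 11 was tested and 0 called. The relative *SIRPG*, 9.1 kb from *SIRPB1*, is among the 21 but was too scarce to be tested. It had 11, 7 and 2 counts in SC cells at 8 cP and 0 in every shTRPV4 library. *IFT57*, the only gene tested of 5 around *CD47*, rose by 0.21 on the log2 scale on knockdown (edgeR adjusted p = 0.00557).

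**Figure D3:**
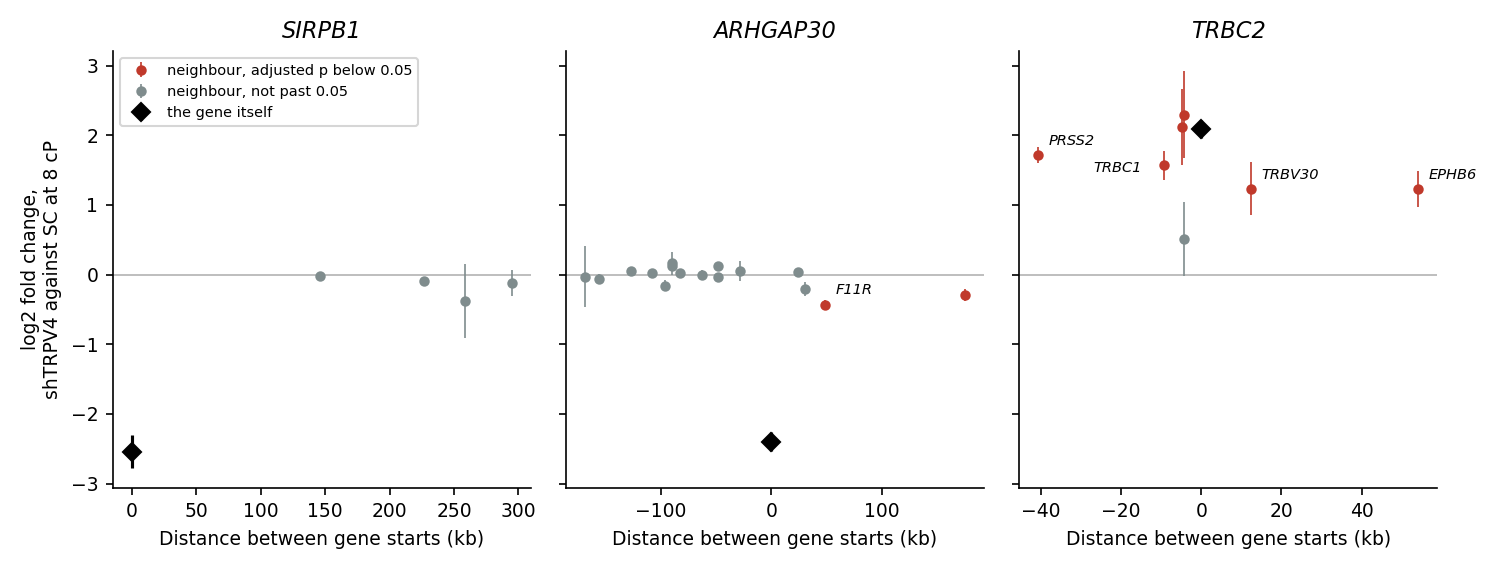
log2 fold change between shTRPV4 and SC cells at 8 cP (vertical axis, bars ± SE) of the tested genes within 200 kb of *SIRPB1*, *ARHGAP30* and *TRBC2*, by the distance between gene starts (horizontal axes, kb). The diamond is the gene itself and red points are neighbours with an adjusted p below 0.05. The tested neighbours of *SIRPB1* and *ARHGAP30* lay between -0.43 and 0.16. Those of *TRBC2* lay between 0.51 and 2.30, but they include its relative *TRBC1* and the 2 unlabelled red points, *TRBJ2-1* and *TRBJ2-3*, which passed the filter on low counts only through the shTRPV4 libraries.

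The T cell receptor needs the α chain and the CD3 proteins to reach the cell surface. Of 9 such genes besides *TRBC1* and *TRBC2*, 1 was tested, *TRAC*, the α constant region, and it went the other way. It had 338, 327 and 355 counts in SC cells at 8 cP and 223, 177 and 202 in shTRPV4 cells, without overlap (log2 fold change -0.63, SE 0.105, edgeR adjusted p = 0.000658). With viscosity *TRAC* was at -0.068 (adjusted p = 0.685). *CD3D* had 9 counts over all 9 libraries, *CD3E* 8 and *CD3G* 0. Of 15 genes of T cell signalling and lineage, 5 were tested, and 0 were called with viscosity (median 0.0119). On knockdown 1 was higher and 0 lower (median 0.436), against 9.02% and 11.0% of all genes tested. The higher gene was *CD8A*, the co-receptor of cytotoxic T cells, at 1.55 ± 0.169 CPM in SC and 2.25 ± 0.137 CPM in shTRPV4 cells (SD, n = 3; log2 fold change 0.54, edgeR adjusted p = 0.0117), a call lost without SC replicate 3 at 8 cP. The transcription factor gene *TCF7* was at 0.44 (adjusted p = 0.0924) on knockdown and 0.47 (0.0836) with viscosity, both past the threshold without a filter on low counts (0.0152 and 0.0124). It also passed on knockdown without SC replicate 3 at 8 cP (0.0442), and with viscosity in DESeq2 (0.0457) and without SC replicate 3 at 0.77 cP (0.0311) or SC replicate 2 at 8 cP (0.0279).

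Genes listed as broad leukocyte markers, not all of them found in every type, were of unequal level in this line. *CD53* had 3 counts over all libraries, the transcription factors *SPI1* and *IKZF1* had 7 and 4, and *PTPRC* had 100. By contrast *RAC2* was at 159 ± 6.66 CPM and *LAPTM5*, a lysosomal membrane protein of blood cells, at 59.3 ± 2.18 CPM in SC cells at 8 cP (SD, n = 3). Of 8 such markers 5 were tested. On knockdown 0 were higher and 3 lower (median -0.292), where 9.02% of all genes tested were called higher and 11.0% lower. The β2 integrin gene *ITGB2* fell from 11.0 ± 0.897 to 5.76 ± 0.615 CPM (SD, n = 3; log2 fold change -0.94, edgeR adjusted p = 2.8e-06), and *LAPTM5* was at -0.55 (adjusted p = 7.3e-06). *RAC2*, the Rac of blood cells, was at -0.17 (adjusted p = 0.0115), a call lost without SC replicate 1 at 8 cP (0.0759). With viscosity 0 were higher and 2 lower (median -0.130), against 9.57% and 9.69% of all genes tested. These were *ITGB2* at -0.40 (edgeR adjusted p = 0.00479) and *RAC2* at -0.13 (0.0478). The *RAC2* call was lost in 7 of the 9 fits without 1 library (adjusted p up to 0.222). It was kept without SC or shTRPV4 replicate 1 at 8 cP. The summed level of the 8 markers was 254.9 to 257.1 CPM in SC cells at 0.77 cP, 225.4 to 241.7 at 8 cP and 185.5 to 191.8 in shTRPV4 cells. This sum was made up mainly of *RAC2* and *LAPTM5*. It was lower on knockdown, as were *SIRPB1* and *ARHGAP30*, and its part in their values was not tested. *PTPRC* (log2 fold change -0.29, edgeR adjusted p = 0.726) and *CORO1A* (-0.15, 0.544) were not called on knockdown.

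**Figure D4:**
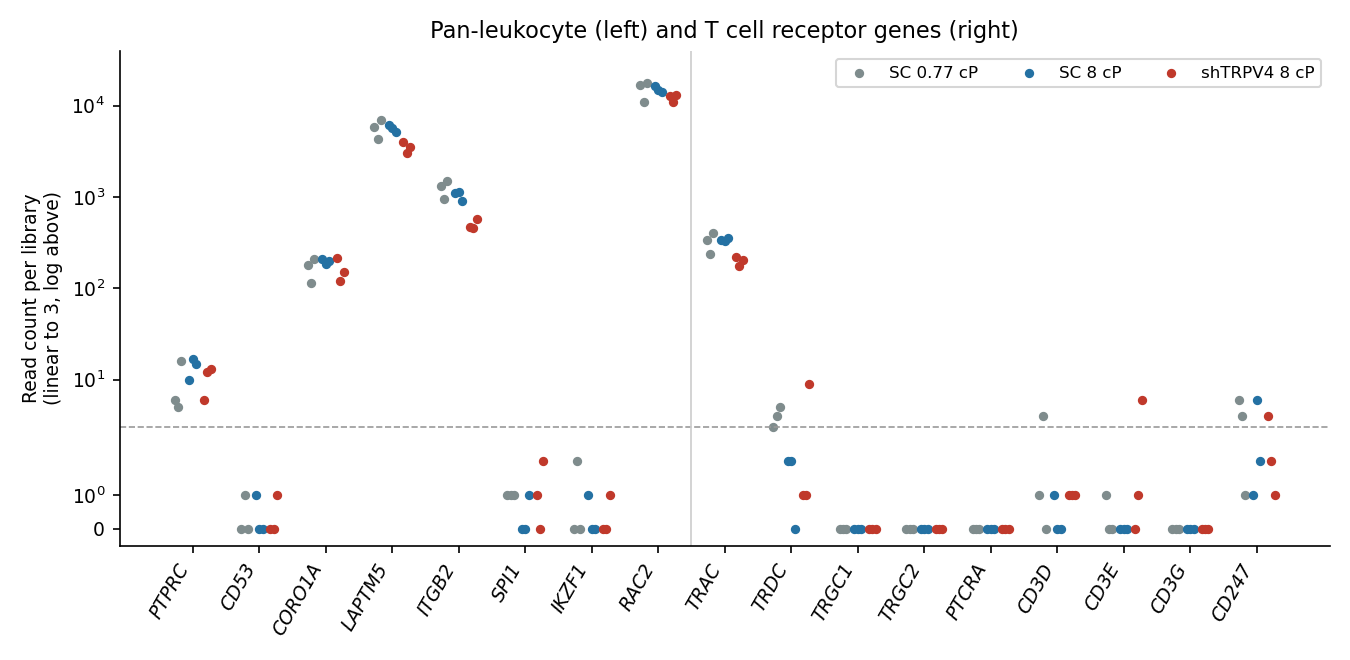
Counts per library (vertical axis, linear to 3 and logarithmic above) of the 8 broad leukocyte markers (left) and the 9 other T cell receptor and CD3 genes (right). Points are the 9 libraries. The dashed line marks 3 counts. *CD53*, *SPI1*, *IKZF1* and the CD3 genes stayed near 0, and *PTPRC* had 5 to 17 counts and *CORO1A* 113 to 217. *LAPTM5*, *ITGB2*, *RAC2* and *TRAC* had at least 177 counts in every library and were lower in the shTRPV4 libraries than in the SC libraries at 8 cP.

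Markers of B, myeloid and natural killer cells gave 4 tested genes of 12. On knockdown 0 were higher and 2 lower (median -0.397), against 9.02% and 11.0% of all genes tested. *CSF1R*, a receptor of macrophage growth factors, was at -0.50 (edgeR adjusted p = 0.000652). *LYZ*, which encodes lysozyme, was at -1.02 (adjusted p = 0.0397) with 31, 34 and 32 counts against 12, 16 and 15, and it lost its call in DESeq2 (0.0571), without a filter on low counts (0.0617) and in 7 of the 9 fits without 1 library (adjusted p from 0.0505 to 0.133), the exceptions being SC replicates 1 and 3 at 0.77 cP. With viscosity 0 were higher and 1 lower (median 0.00475), against 9.57% and 9.69% of all genes tested. The lower gene was *CD14*, a co-receptor of monocytes, at -0.46 (edgeR adjusted p = 0.0144). Its call was lost without SC replicate 1 (0.0635) or 2 (0.0697) at 0.77 cP or SC replicate 3 at 8 cP (0.0854). *MS4A1* and *FCGR3A* had 0 counts in all libraries. The summed level of these 12 markers was 12.1 to 13.4 CPM in SC cells at 0.77 cP, 10.7 to 11.9 at 8 cP and 8.11 to 8.84 in shTRPV4 cells.

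Genes that mark MDA-MB-231 cells were at high level in every library. All 6 genes known to be abundant in the line were tested. On knockdown 1 was higher and 2 lower (median 0.00497), against 9.02% and 11.0% of all genes tested. The higher was the keratin gene *KRT18* at 0.18 (edgeR adjusted p = 0.0126). The lower were *VIM*, the intermediate filament of mesenchymal cells, at -0.28 (0.000193) and the receptor kinase gene *AXL* at -0.31 (0.00170). *KRT18* lost its call without SC replicate 2 (0.0604) or 3 (0.0558) at 8 cP or shTRPV4 replicate 3 (0.0547). With viscosity 1 was higher and 2 lower (median -0.0027), against 9.57% and 9.69% of all genes tested. *AXL* was at 0.22 (edgeR adjusted p = 0.0155), *KRT18* at -0.21 (0.00642) and *VIM* at -0.17 (0.00950). These 3 calls were lost without SC replicate 3 at 8 cP (0.0674, 0.0516 and 0.0770), and that of *AXL* also without SC replicate 1 (0.0797) or 2 (0.0748) at 0.77 cP. Of 5 genes known to be low in the line, 2 were tested. These 2 were not near 0, with *EPCAM* at 18.15 and *GATA3* at 12.77 CPM in SC cells at 8 cP. *ESR1*, *PGR* and *CDH1* had 13, 7 and 58 counts over all libraries. *GATA3* rose by 0.30 on knockdown (edgeR adjusted p = 0.00265, median of the list 0.148), and 0 were called with viscosity (median 0.00285).

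The genes whose pattern over the 9 libraries was most like that of each chosen gene were found by the root mean square difference of centred log2 CPM. They were selected by the pattern itself, so this likeness was given no test. The test of *PRSS2* above was made because of its position. For *SIRPB1* they included the long non-coding RNA gene ENSG00000227706 (0.264) and *SHISA3* (0.316). For *ARHGAP30* they were *SHROOM4* (0.153), an actin-binding protein gene, ENSG00000227706 (0.176) and *SHISA3* (0.236). ENSG00000227706 had 352, 311 and 319 counts in SC cells at 8 cP and 60, 50 and 48 in shTRPV4 cells, and *SHROOM4* had 64, 63 and 58 against 16, 6 and 8. For *TRBC2* they were *ALPP* (0.209), which encodes placental alkaline phosphatase, *PRSS2* (0.233) and the cytokine gene *TNFSF15* (0.270). *ALPP* had 31, 24 and 43 counts in SC cells at 0.77 cP, 29, 22 and 20 at 8 cP, and 98, 80 and 99 in shTRPV4 cells.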

How the data were processed

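As described by the authors, poly(A) RNA was made into strand-specific libraries with inserts of about 200 bp and read as pairs of 100 bp. According to the submitters' notes, reads were mapped with HISAT2 2.2.1 to GRCh38.p13 and assigned to genes with HTSeq 0.13.5. The authors deposited the resulting counts of each sample without normalization. HTSeq's settings for strand and for reads that map to several genes are not given in the sources used here. Of 60664 gene identifiers, 60463 were matched to a symbol and position in GENCODE release 44. Groups came from the sample titles, and the labels do not say whether replicates were separate cultures, so p-values measure the spread between these samples, which may be technical.

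Counts were scaled with TMM, filtered with filterByExpr (18264 genes) and tested with edgeR 4.0.16 in R 4.3.3 by a quasi-likelihood model of all 9 samples with 1 coefficient per group. Benjamini-Hochberg adjustment covered all genes tested, and the threshold was 0.05. The common biological coefficient of variation was 0.0633. log2 CPM used a prior count of 2. The 3 counts used as the limit for a count of 0 cover counting error only. Every 100-base window of the members' transcripts was searched in the transcripts of all other genes. The script was tested on simulated data. The members and gene lists were chosen with earlier results of these data known. The genes named are the members, *TRPV4*, the 3 genes of each list with the smallest adjusted p in each contrast, defining leukocyte markers, genes that share exon bases or lie within 200 kb, and the 3 genes of the most similar pattern. Some genes and a list that this rule selects are not reported here. Alternatives were DESeq2 1.42.0, other scaling and filters, only the 6 samples compared, the replicate number as a block, merged counts of paralogs and leaving out each library.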

Additional observations from a re-analysis of the deposited data

How the results depend on the processing

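Without a filter on low counts, *SIRPA* on knockdown kept its log2 fold change (0.27) but not its call (edgeR adjusted p = 0.0638). *ARHGAP30* passed the threshold with viscosity without that filter (-0.32), with only the 6 samples compared (-0.32) and in DESeq2 (-0.31). With the counts of *SIRPA* and *SIRPB1* added, the value in place of that of *SIRPB1* was -0.033 on knockdown and 0.10 relative to the 0.77 cP group. The sum holds the higher *SIRPA* level of shTRPV4 cells along with the lower *SIRPB1* level. Leaving out each library in turn, *SIRPA* on knockdown ranged from 0.21 to 0.31, *ARHGAP30* with viscosity from -0.37 to -0.27, *TRBC2* with viscosity from -0.65 to -0.45, and *CD47* relative to the 0.77 cP group from -0.19 to -0.13. The genes called ranged from 2179 to 3836 on knockdown (lowest without SC replicate 2 at 8 cP, 2361 without replicate 1) and from 1409 to 4349 with viscosity (1409 without SC replicate 1 and 1927 without replicate 2 at 0.77 cP, 1418 without SC replicate 3 at 8 cP). *PRSS2* with viscosity (-0.031) was -0.084 without SC replicate 1 at 8 cP and turned to 0.054 without SC replicate 2 at 0.77 cP and 0.062 without SC replicate 3 at 8 cP, none of them past the threshold. Where no value shows the reason, the cause was not tested. Replicate numbers did not pair the samples, as correlations of same-numbered samples were -0.055 to 0.090. The replicate block changed no call of the 6 genes, with 3607 genes called on knockdown, and *SIRPA* at an adjusted p of 0.0341. Counts were low for *SIRPB1* in shTRPV4 cells (20 to 27) and for *TRBC1* in SC cells (39 to 62), which limits the precision of these values.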
